A study of Mus musculus with 29 samples.

Results

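The genes described here are 10 genes of mononuclear phagocytes, the lysozymes Lyz2 and Lyz1, the lysosomal glycoprotein gene Cd68, the receptor genes Csf1r, Cd14 and Mrc1, the lysosomal protease gene Ctss, and Mpeg1, Aif1 and Laptm5. They were chosen by name, and all 10 were found among the 13982 genes of the table, so each has a value in all 14 libraries. RNA was sequenced from lupus-prone (NZBxNZW)F1 mice, called NZB/W mice below. The mice labelled proteinuric gave 10 libraries, 4 of kidney (H6, H20, H115 and H117, aged 39, 36, 25 and 32 weeks), 3 of tertiary lymphoid structures (TLS; mice H6, H20 and H115) and 3 of renal lymph node (mice H6, H20 and H117). TLS were dissected by hand under a loupe, and the kidney tissue came from the same kidneys. A further 3 lymph node libraries came from mice with anti-dsDNA antibodies in serum (mice D10, D11 and L25, aged 28, 29 and 18 weeks), and 1 came from a young mouse (mouse C45, aged 4 weeks). All RNA was purified with TRIzol except that of the antibody-positive lymph nodes, for which the miRNeasy kit was used. No control strain was included, so all groups share the NZB/W background.

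Macrophages and monocytes depend on the receptor encoded by Csf1r, which binds the cytokines CSF1 and IL-34 and keeps these cells alive in tissues. They take up particles and break them down in lysosomes, where CD68 and cathepsin S (Ctss) are found, and they secrete lysozyme, which cleaves bacterial cell walls. CD14 binds lipopolysaccharide and hands it to TLR4. Kidneys hold resident macrophages between the tubules, and lymph nodes hold them in the sinuses and in the medulla. Several of the genes are shared with other leukocytes, as Ctss and Laptm5 are also expressed by B cells and Lyz2 and Cd14 by neutrophils.

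Values are reads plus 1, divided by the size factor of the library, so a gene without a read is listed at 0.786 to 1.77 and not at 0. The libraries had 343825 to 443379 reads (median 387398), and each TLS library had more reads than each kidney library. Of the reads, 55.9% fell on ribosomal RNA genes in the kidney of mouse H117, 32.0% in the lymph node of mouse H6 and 22.2% in the TLS of mouse H115, but at most 5.98% in the other 11 libraries. This left 166182, 296363 and 344743 reads on other genes in these 3 libraries, against at least 340870 in each of the others, and the calls that change without the 3 are given beside the results. The summed value of 8 kidney epithelial genes was 5869 to 18095 in kidney and 1665 to 7489 in TLS, whereas the lymph nodes of proteinuric mice had 0 to 2 reads on them in all. The summed value of 8 B-cell genes was 9.27 to 28.4 in kidney, 336 to 489 in TLS and 617 to 901 in these lymph nodes. TLS libraries therefore held tubular RNA beside lymphocyte RNA. In such bulk samples, fewer cells of a type and less RNA per cell cannot be told apart.

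The 2 lysozyme genes are the pair in which sequence bears on the values. They lie next to each other on the minus strand of chromosome 10 in GRCm38, Lyz2 (ENSMUSG00000069516) from 117277331 to 117282321 and Lyz1 (ENSMUSG00000069515) from 117287797 to 117292868. Their coding sequences have 447 bases each in 4 exons and differ at 22 positions, so they are 95.1% identical. The first 150 coding bases hold 14 of these differences, shown in capitals, and are printed because a read can be given to one gene or the other only where they differ.
Lyz2: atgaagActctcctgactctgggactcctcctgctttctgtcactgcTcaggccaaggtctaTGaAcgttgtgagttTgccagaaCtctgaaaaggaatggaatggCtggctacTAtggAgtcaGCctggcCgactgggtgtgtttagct
Lyz1: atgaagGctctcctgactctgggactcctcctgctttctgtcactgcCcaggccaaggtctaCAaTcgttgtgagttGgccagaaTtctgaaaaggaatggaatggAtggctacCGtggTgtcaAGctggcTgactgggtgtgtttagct
The longest run without a difference in the coding sequence had 118 bases. Of the 1214 stretches of 50 bases in the Lyz1 transcript, 195 (16.1%) also occur in Lyz2, as do 24 of the 1164 stretches of 100 bases (2.06%) and 0 of the 1114 stretches of 150 bases. The counting could thus have split some reads of one gene to the other, and the low values of Lyz1 are uncertain for that reason.

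The stretches before the 2 genes are alike as well, and are printed because both genes had reads in the same lymph nodes at levels far apart. Of the 252 aligned positions of the 250 bases before the RefSeq starts, 79.4% were identical. Shown are the 200 bases that end 50 bases before the RefSeq start of each gene in GRCm38.p6. They are chr10:117282323-117282522 for Lyz2 and chr10:117292919-117293118 for Lyz1, both on the minus strand. The RefSeq start of Lyz2 lies inside the gene as listed above, so its 250 bases overlap that gene. Capitals mark the 50 bases of each printed stretch that differ or have no partner in the alignment.
Lyz2: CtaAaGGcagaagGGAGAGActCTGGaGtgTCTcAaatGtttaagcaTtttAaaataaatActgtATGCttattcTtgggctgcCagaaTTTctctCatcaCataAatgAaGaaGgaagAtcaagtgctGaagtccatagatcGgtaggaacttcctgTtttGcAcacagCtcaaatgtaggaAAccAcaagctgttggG
Lyz1: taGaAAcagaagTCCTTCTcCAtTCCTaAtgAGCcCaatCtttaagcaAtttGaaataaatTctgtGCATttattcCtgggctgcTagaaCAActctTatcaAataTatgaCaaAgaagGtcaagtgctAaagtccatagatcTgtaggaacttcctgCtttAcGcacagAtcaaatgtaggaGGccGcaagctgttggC
RefSeq promoters were found for 8 of the 10 genes, all but Csf1r and Cd14. Searched on both strands of the 250 bases before the start, the PU.1 sequence GAGGAAGT was in 0 of the 8, against 2.44% of 32851 promoters. The C/EBP sequence TTGCNNAA was in the promoters of Lyz1 and Cd68 (9.56% of all promoters) and the AP-1 sequence TGANTCA in that of Cd68 alone (6.75% of all promoters). A match is a run of letters and not a known site.

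Lyz2 was the highest of the 10 genes per kb of exon in each of the 5 groups. Its value in kidney was 172 in mouse H6, 234 in mouse H20, 109 in mouse H115 and 65.7 in mouse H117. In TLS it was 609 in mouse H6, 515 in mouse H20 and 424 in mouse H115, and in lymph node it was 1856 in mouse H6, 1398 in mouse H20 and 1306 in mouse H117. No library of one tissue overlapped another, so the order kidney, TLS, lymph node held in each proteinuric mouse that gave both tissues. The mean value was 145 ± 73.8 over the kidneys (SD, n = 4) and 516 ± 92.3 over the TLS (SD, n = 3). TLS exceeded kidney by 1.96 on the log2 scale with an SE of 0.45 (adjusted p = 0.0120 by limma, with Benjamini-Hochberg adjustment over all genes tested). Lymph node (1520 ± 295; SD, n = 3) was higher than kidney by 3.51 with an SE of 0.45 (adjusted p = 5.01e-05 by limma). Lymph node over TLS gave 1.56 (SE 0.48) and missed the threshold (adjusted p = 0.0616 by limma).

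Lyz1, the second lysozyme gene, had 0 reads in all 4 kidneys. In TLS it had 7 reads in mouse H6, 2 in mouse H20 and 1 in mouse H115, whereas the lymph nodes had 11, 31 and 30 reads in mice H6, H20 and H117. These were values of 17.4, 30.3 and 25.1 in lymph node and of 6.78, 2.36 and 2.18 in TLS, without overlap. Lyz1 was higher in lymph node than in TLS by a log2 fold change of 2.50 with an SE of 0.43 (adjusted p = 0.00216 by limma). Against kidney, lymph node was at least 4.36-fold higher when kidney was set to the worth of 3 reads in its shallowest library (adjusted p = 1.91e-05 by limma). Kidney and TLS were both near that floor, and the difference missed the threshold (adjusted p = 0.110 by limma), though it passed in the count tests on the recovered reads (edgeR quasi-likelihood adjusted p = 0.0307; DESeq2 adjusted p = 0.0252).

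Lyz1 did not keep a fixed proportion to Lyz2. Its share of the reads of the pair was 0 of 600 over the 4 kidneys, which allows up to 0.5% if the mice are pooled. In single kidneys the 95% Wilson intervals reached 1.94%, 1.37%, 3.97% and 9.64% (mice H6, H20, H115 and H117). These limits lie above the share of each TLS library, so no single kidney is told apart from TLS. The TLS of mice H6, H20 and H115 had shares of 0.967%, 0.305% and 0.257%. In the lymph nodes of proteinuric mice it was 0.852% in mouse H6, 2.06% in mouse H20 and 1.83% in mouse H117. The antibody-positive lymph nodes had 2.65%, 2.24% and 3.33% (mice D10, D11 and L25), all above the proteinuric lymph nodes, and the young lymph node had 2.24%. Wilson intervals (95%) were 0.469 to 1.98% in TLS of mouse H6 and 0.476 to 1.52% in lymph node of mouse H6, so those 2 libraries of one mouse were indistinguishable at this depth. The intervals cover counting error only, as PCR copies are not separate molecules.

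**Figure D1:**
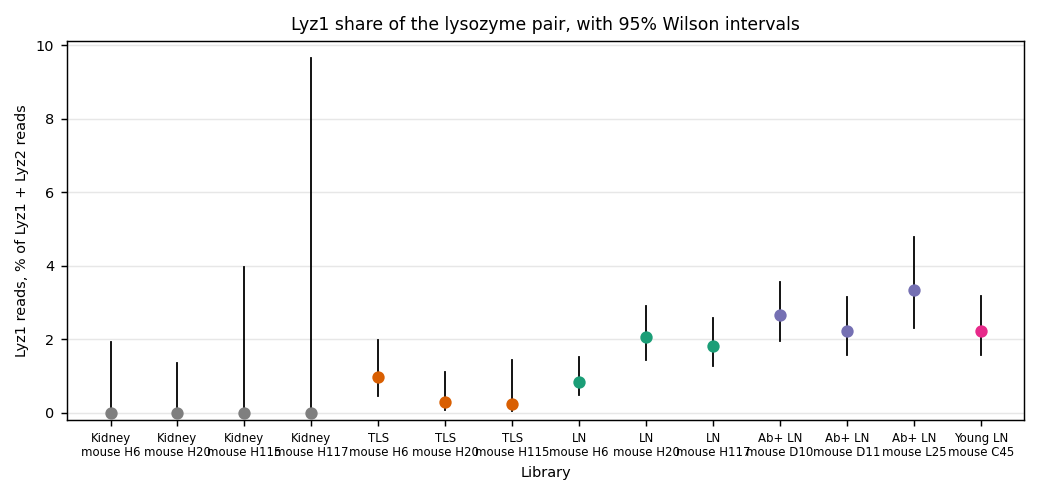
Lyz1 reads as a percentage of Lyz1 plus Lyz2 reads (y axis) in each of the 14 libraries (x axis; Ab+ LN, antibody-positive lymph node), with 95% Wilson intervals as vertical lines. The 4 kidneys sit at 0, the TLS between 0.257 and 0.967%, and the antibody-positive lymph nodes between 2.24 and 3.33%.

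Ctss, which encodes the protease that trims the invariant chain of MHC class II, was second per kb in each group. It lies on chromosome 3 (ENSMUSG00000038642; 95526786 to 95556403, plus strand). Its value in kidney was 79.6 in mouse H6, 159 in mouse H20, 40.6 in mouse H115 and 26.6 in mouse H117. In TLS it was 371, 237 and 298 (mice H6, H20 and H115), and in lymph node 591, 679 and 441 (mice H6, H20 and H117). The 3 tissues did not overlap. TLS was higher than kidney by a log2 fold change of 2.27 with an SE of 0.53 (adjusted p = 0.0132 by limma) and lymph node was higher than kidney by 3.18 with an SE of 0.53 (adjusted p = 0.000377 by limma). Lymph node over TLS was 0.92 (SE 0.57), which did not pass (adjusted p = 0.378 by limma).

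Mpeg1 encodes perforin-2, a pore-forming protein of the phagosome (ENSMUSG00000046805; chromosome 19, 12460779 to 12465283, plus strand). Its value in kidney was 17.7, 16.0, 5.79 and 3.55 (mice H6, H20, H115 and H117), in TLS 48.3, 32.2 and 29.4 (mice H6, H20 and H115), and in lymph node 69.6, 47.4 and 84.2 (mice H6, H20 and H117). The kidneys lay below all other libraries, whereas TLS of mouse H6 lay above the lymph node of mouse H20. TLS was higher than kidney by a log2 fold change of 1.89 with an SE of 0.48 (adjusted p = 0.0203 by limma), and lymph node was higher than kidney by 2.73 (adjusted p = 0.000568 by limma).

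Aif1 encodes IBA1, an actin-binding protein used to stain macrophages and microglia (ENSMUSG00000024397; chromosome 17, 35170991 to 35176068, minus strand). In kidney its value was 4.42, 22.8, 4.64 and 7.10 (mice H6, H20, H115 and H117), so that mouse H20 stood apart from the others. It was 34.8, 29.1 and 37.1 in TLS (mice H6, H20 and H115) and 66.7, 104 and 46.9 in lymph node (mice H6, H20 and H117), and no tissue overlapped another. The log2 fold change of TLS over kidney was 1.98 with an SE of 0.49 (adjusted p = 0.0164 by limma) and that of lymph node over kidney 3.00 (adjusted p = 0.000296 by limma). With edgeR's quasi-likelihood test the first of these was 1.98 with an adjusted p of 0.0506.

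Laptm5 encodes a lysosomal membrane protein of hematopoietic cells that dampens antigen receptor signalling (ENSMUSG00000028581; chromosome 4, 130913125 to 130936141, plus strand). Its values were 13.3, 13.5, 4.64 and 5.32 in kidney (mice H6, H20, H115 and H117), 48.3, 28.3 and 39.3 in TLS (mice H6, H20 and H115) and 60.9, 90.9 and 151 in lymph node (mice H6, H20 and H117), again without overlap. It was higher in TLS than in kidney by a log2 fold change of 2.06 with an SE of 0.44 (adjusted p = 0.00764 by limma) and higher in lymph node than in kidney by 3.36 (adjusted p = 5.59e-05 by limma). In TLS versus kidney, it was the one gene of the 10 that stayed past the threshold in all 17 alternatives run.

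Cd68, a macrophage antigen often stained in sections, was less clear. It lies on chromosome 11 (ENSMUSG00000018774; 69664213 to 69666153, minus strand). Its value in kidney was 31.8 in mouse H6, 28.7 in mouse H20, 4.64 in mouse H115 and 3.55 in mouse H117, from 35, 33, 3 and 1 reads. TLS had 55.1, 25.2 and 15.3 (mice H6, H20 and H115) and lymph node 30.4, 59.7 and 59.1 (mice H6, H20 and H117), so all 3 tissues overlapped. The kidneys of mice H6 and H20 were as high as the lymph node of mouse H6. Lymph node over kidney was 1.95 on the log2 scale with an SE of 0.72 (adjusted p = 0.0453 by limma), but this call held in 6 of 17 alternatives, over which the adjusted p ranged from 0.0170 to 0.130. With the mouse as a replicate block it was 1.64 (adjusted p = 0.0596 by limma). TLS over kidney had a 95% interval of -0.38 to 2.77 (adjusted p = 0.307 by limma).

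Csf1r, the gene of the CSF1 and IL-34 receptor, had smaller estimates than most of the list, and none of them passed the threshold in the fit of the 3 tissues. It lies on chromosome 18 (ENSMUSG00000024621; 61100598 to 61132149, plus strand). In kidney its value was 26.5, 21.9, 42.9 and 14.2 (mice H6, H20, H115 and H117), in TLS 41.5, 19.6 and 33.8 (mice H6, H20 and H115) and in lymph node 33.3, 59.7 and 68.8 (mice H6, H20 and H117). The highest kidney, that of mouse H115, had 36 Csf1r reads and 3 Cd68 reads, whereas the kidney of mouse H6 had 29 and 35. TLS over kidney was 0.30 on the log2 scale, with a 95% interval of -0.62 to 1.21 (adjusted p = 0.708 by limma), and its sign turned to -0.030 without the 3 libraries rich in ribosomal RNA. Lymph node over kidney was 1.05 (95% interval 0.13 to 1.96, adjusted p = 0.0613 by limma). It passed the threshold in 4 of 17 alternatives, over which the adjusted p ranged from 0.0270 to 0.198. These were the replicate block for the mouse (1.22, adjusted p = 0.0483 by limma), DESeq2 (1.08, adjusted p = 0.0430), and the fits without kidney of mouse H115 (1.31, adjusted p = 0.0270 by limma) and without lymph node of mouse H6 (1.35, adjusted p = 0.0355 by limma).

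Cd14 ran the other way. It lies on chromosome 18 (ENSMUSG00000051439; 36725067 to 36726798, minus strand). Its value was 126 in kidney of mouse H6 and 82.7 in kidney of mouse H20, but 10.4 in kidney of mouse H115 and 5.32 in kidney of mouse H117, from 142, 97, 8 and 2 reads. In TLS it was 53.4, 36.2 and 52.3 (mice H6, H20 and H115), and in lymph node 7.25, 12.3 and 11.3 (mice H6, H20 and H117). TLS and lymph node did not overlap, and the 4 kidneys lay on both sides of TLS. Lymph node over TLS was -2.11 on the log2 scale with an SE of 0.97 (adjusted p = 0.232 by limma), and passed when only those 2 tissues were fitted (adjusted p = 0.00425 by limma). Lymph node over kidney was -1.42 (adjusted p = 0.232 by limma), and passed with edgeR (-2.56, adjusted p = 0.0420), with DESeq2 (-2.48, adjusted p = 0.0165) and without kidney of mouse H117 (-2.16, adjusted p = 0.0359 by limma). TLS over kidney was 0.68 (95% interval -1.33 to 2.69, adjusted p = 0.683 by limma), although the mean value was higher in kidney (56.2 ± 58.6; SD, n = 4) than in TLS (47.3 ± 9.67; SD, n = 3), and the sign turned with edgeR (-0.082) and DESeq2 (-0.15). The ratio of the Cd14 value to the Cd68 value was up to 3.97 in the 4 kidneys, of which the lowest had 1.5, and 0.969 to 3.43 in TLS, against 0.192 to 0.238 in the lymph nodes of proteinuric mice.

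Mrc1, the mannose receptor gene of resident macrophages, was at or near the floor in proteinuric mice. It lies on chromosome 2 (ENSMUSG00000026712; 14229392 to 14332057, plus strand). It had 2, 5, 0 and 0 reads in kidney (mice H6, H20, H115 and H117), 1, 2 and 1 reads in TLS (mice H6, H20 and H115) and 2, 4 and 3 reads in lymph node (mice H6, H20 and H117). These counts allow no order between the tissues at this depth, and Mrc1 fell below the filter on low values, a mean of 5, so it was not tested there. The young lymph node had 10 reads, a value of 9.84, which was at least 2.74-fold higher than in TLS when TLS was set to the worth of 3 reads.

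**Figure D2:**
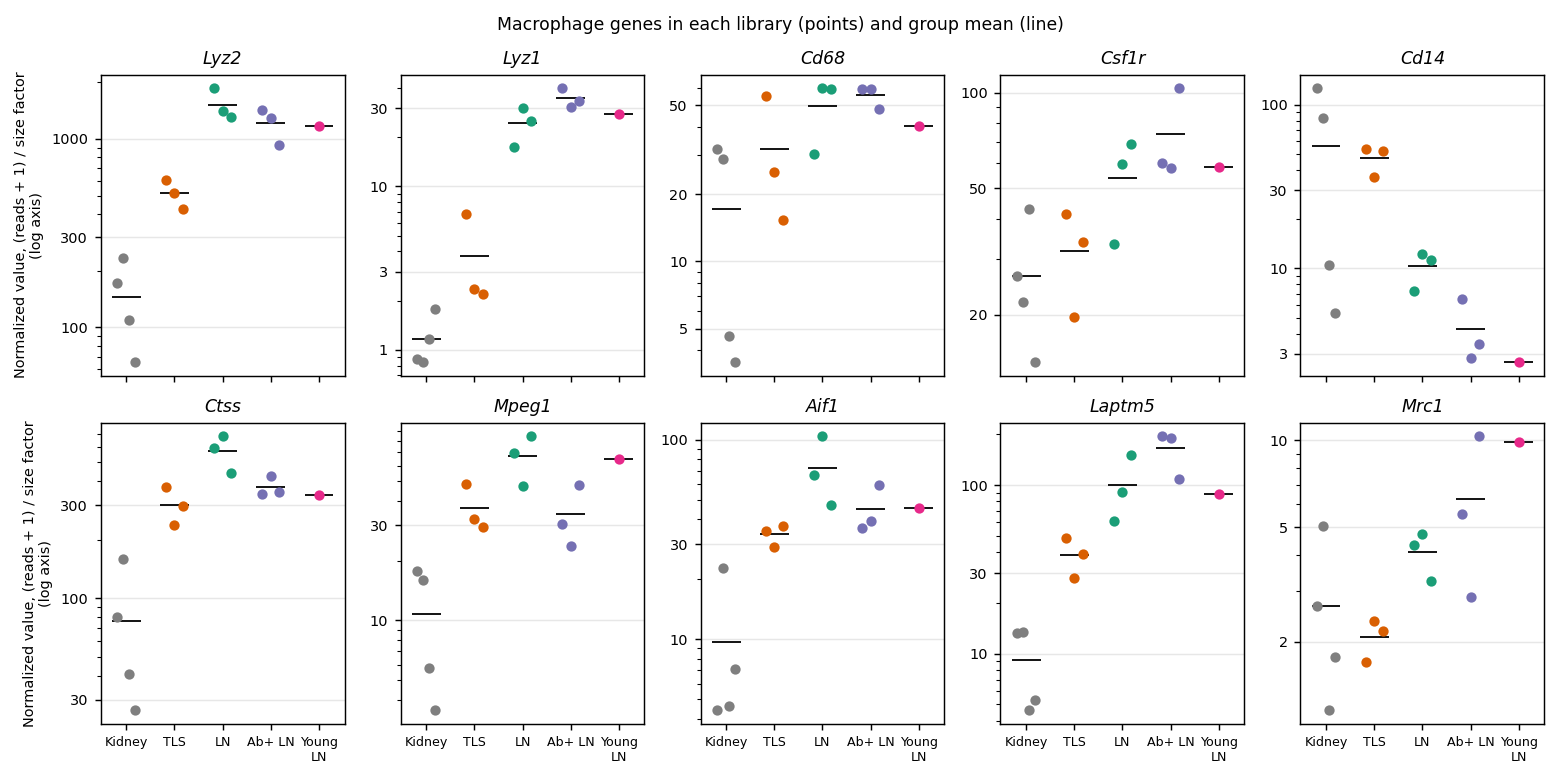
Normalized value (y axis, log scale) of the 10 genes in each library (points), by group (x axis; LN, proteinuric lymph node; Ab+ LN, antibody-positive lymph node), with the group mean as a line. Lyz2, Ctss, Aif1 and Laptm5 step up from kidney to TLS to lymph node without overlap, whereas the 4 kidneys span 5.32 to 126 for Cd14.

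Counted together, 5 of the 9 genes tested were higher in TLS than in kidney (Lyz2, Ctss, Mpeg1, Aif1 and Laptm5) and 0 were lower, where 14.7% of the 7382 genes tested were called, 8.62% as higher and 6.07% as lower in TLS. The values of 6 genes, these 5 and Lyz1, lay higher in TLS without overlap, where 25.4% of all genes did not overlap and 13.4% lay higher in TLS. The median log2 fold change was 1.89 over the 9 genes and -0.01 over all genes tested. Of the 5 calls, 1 (Laptm5) remained without TLS of mouse H6, the TLS library with the highest value of 8 of the 10 genes, and 2 (Lyz2 and Laptm5) remained without the 3 libraries rich in ribosomal RNA. The estimates of the lost calls stayed positive. Without TLS of mouse H6 they were 1.83 for Lyz2, 2.11 for Ctss, 1.68 for Mpeg1 and 1.95 for Aif1, with adjusted p of 0.0584 to 0.102 by limma. Without the 3 libraries they were 1.88 for Ctss, 1.65 for Mpeg1 and 1.87 for Aif1, with adjusted p of 0.0664 to 0.101 by limma.

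Between lymph node and TLS, 1 of the 9 genes (Lyz1) was higher in lymph node, where 10.6% of all genes were called, 1.69% as higher and 8.87% as lower in lymph node. The values did not overlap for 6 of the 9 genes, with Lyz2, Lyz1, Ctss, Aif1 and Laptm5 above TLS and Cd14 below it, where 26.8% of all genes did not overlap. The median log2 fold change was 0.92 over the 9 genes and 0.04 over all genes. DESeq2 called Lyz2 as well (1.59, adjusted p = 0.00263).

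Between lymph node and kidney, 7 of the 9 genes were higher in lymph node, all but Csf1r and Cd14, and 0 were lower, where 43.8% of all genes were called, 20.8% as higher and 23% as lower in lymph node. The values of 6 genes lay higher in lymph node without overlap, where 48.8% of all genes did not overlap and 23.3% lay higher in lymph node. The median log2 fold change was 3.00 over the 9 genes, or 2.73 with Lyz1 at its lower bound, and 0.05 over all genes. The 3 comparisons share libraries, so their calls are not independent of each other. With edgeR, which differs in scaling and in model, the median of all genes was 0.11 in place of -0.01 in TLS over kidney and -0.14 in place of 0.04 in lymph node over TLS. The share of called genes that was higher in TLS than in kidney was 58.7%, and 79.6% with edgeR or 68.8% with DESeq2, and the share higher in lymph node than in TLS was 16.0%, 4.84% with edgeR and 27.3% with a pseudocount of 5.

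**Figure D3:**
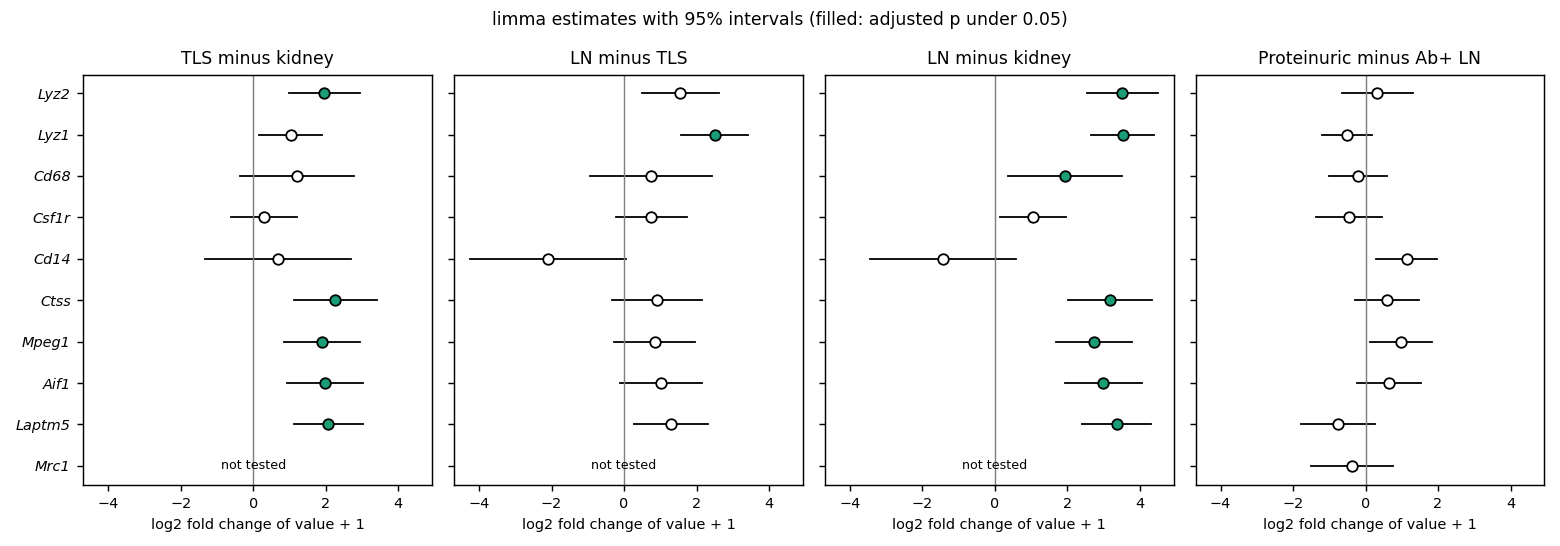
log2 fold changes of value + 1 (x axis) of the 10 genes in 4 comparisons, with 95% intervals from limma as lines and filled points for an adjusted p under 0.05 (Ab+ LN, antibody-positive lymph node). Filled points are 5, 1, 7 and 0 from left to right, and Cd14 is the one gene with estimates below 0 in both comparisons of lymph node with another tissue.

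The 4 kidneys lay at 2 levels in several of the genes. This split is described only, and the share of all genes that show it was not counted. Mice H6 and H20, aged 39 and 36 weeks, were above mice H115 and H117, aged 25 and 32 weeks, in Lyz2, Cd68, Cd14, Ctss, Mpeg1 and Laptm5. The 10 genes took 0.155% and 0.193% of the reads outside ribosomal RNA in kidneys of mice H6 and H20, and 0.0530% and 0.0397% in those of mice H115 and H117. The spread was widest for Cd14. Csf1r did not follow the split, as mouse H115 was highest. Aif1 did not follow it either, as mouse H6 was lowest (4.42, against 4.64 in mouse H115 and 7.10 in mouse H117). The summed value of 7 pan-leukocyte genes moved the same way, at 114 and 143 in mice H6 and H20 and at 55.6 and 58.6 in mice H115 and H117, and that of 8 kidney epithelial genes moved the opposite way, at 5869 and 8225 against 18095 and 15600. Whether age, depth or the piece of kidney taken had a part in this split was not tested.

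Within single mice, the direction of Cd14 from kidney to TLS differed. It was lower in TLS than in kidney in mouse H6 (53.4 against 126) and mouse H20 (36.2 against 82.7), and higher in mouse H115 (52.3 against 10.4). Ctss was higher in TLS than in kidney in all 3 mice, by a difference of log2(value + 1) of 2.21 in mouse H6, 0.58 in mouse H20 and 2.85 in mouse H115. Aif1 behaved much like Ctss, with 2.72, 0.34 and 2.76 in the same mice. The kidney and TLS of mouse H20 were thus the closest pair in both genes.

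**Figure D4:**
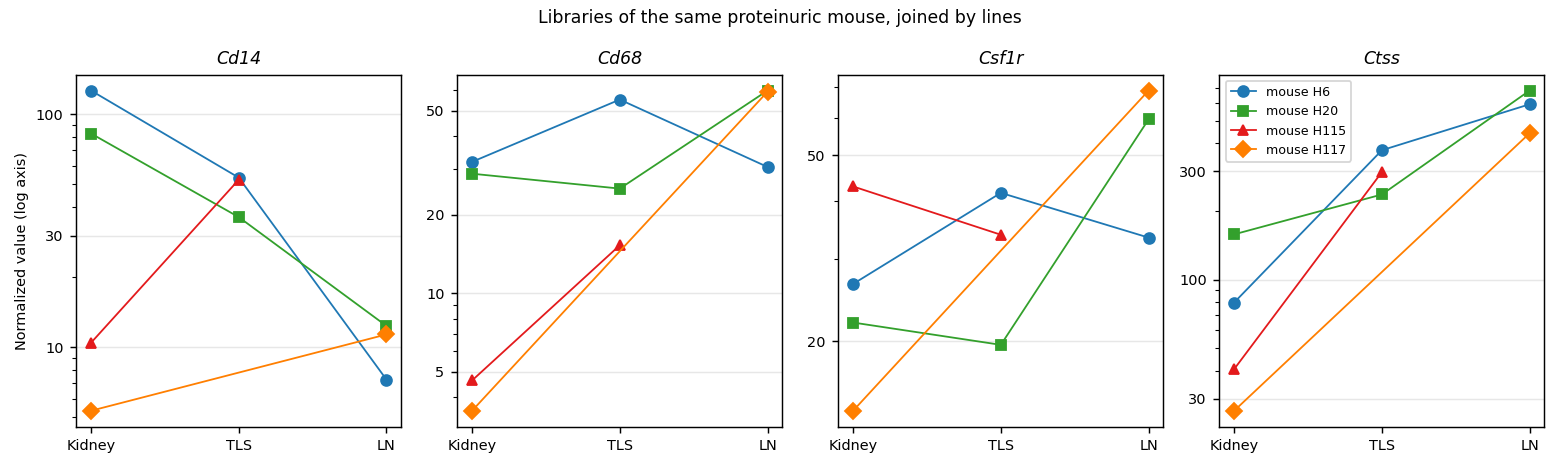
Normalized value (y axis, log scale) of Cd14, Cd68, Csf1r and Ctss in kidney, TLS and lymph node (x axis), with libraries of the same proteinuric mouse joined by lines; mouse H117 had no TLS library and mouse H115 no lymph node library. Ctss is higher at each step of each line, whereas Cd14 is lower at each step in mice H6 and H20 and higher from kidney to TLS in mouse H115 and from kidney to lymph node in mouse H117.

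All 7 pan-leukocyte genes tested (Ptprc, Coro1a, Cd52, Cd53, Arhgdib, Lcp1 and Rac2) rose from kidney to TLS, and from kidney to lymph node, by limma. The genes were therefore also set against the mean of these 7, as a difference of log2 values without a test. From kidney the 7 genes rose by 2.26 (Lcp1) to 3.20 (Cd52) in TLS and by 3.00 (Lcp1) to 4.17 (Coro1a) in lymph node. Any gene that rose less therefore falls on this scale, so a fall is no result about the genes of the list. Lyz1, without a read in kidney, was at -2.34 in kidney and -2.60 in lymph node. Lyz2 was 3.61 ± 0.30 above the pan-leukocyte mean in kidney (SD, n = 4), 2.75 ± 0.19 in TLS (SD, n = 3) and 3.33 ± 0.35 in lymph node (SD, n = 3). For Csf1r this difference was 1.24 ± 0.95 in kidney, -1.29 ± 0.38 in TLS and -1.51 ± 0.46 in lymph node. Cd14 had the widest range, from 1.46 ± 1.51 in kidney to -0.68 ± 0.32 in TLS and -3.76 ± 0.31 in lymph node. The ranges of kidney and TLS overlapped for Ctss and Aif1. The share of all genes that lie higher in kidney on this scale was not computed, so no count of the genes plotted is given. In kidney the 7 pan-leukocyte genes had few reads, 41 in all in mouse H115 and 26 in mouse H117.

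**Figure D5:**
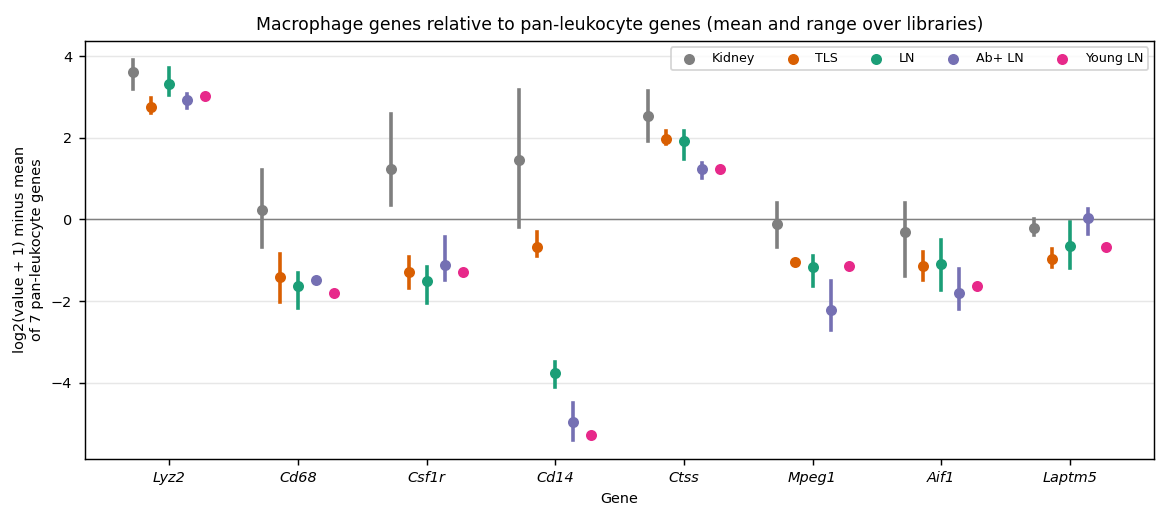
Difference between log2(value + 1) of a gene and the mean of 7 pan-leukocyte genes (y axis) for 8 genes (x axis), as the mean (point) and range (line) over the libraries of each group. Cd14 steps down from kidney (1.46) to TLS (-0.68) and proteinuric lymph node (-3.76). A gene that rose less than the 7 from kidney to another tissue lies higher in kidney on this scale.

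Other genes of mononuclear phagocytes were counted beside the list. Of 16 tested, 6 were higher in TLS than in kidney and 0 were lower, where 8.62% and 6.07% of all genes were. Ly6c2, a monocyte gene, was higher by 3.66 on the log2 scale (adjusted p = 0.000121 by limma) and Itgax, the gene of CD11c, by 2.38 (adjusted p = 0.00667 by limma). The 3 complement genes C1qa, C1qb and C1qc were among the 6. The other 10 were not called, among them Adgre1 (0.81, adjusted p = 0.279 by limma), and the estimates of Mertk (-0.42) and Sirpa (-0.20) were below 0. edgeR called 4 of the 16 and DESeq2 6. In lymph node versus kidney 11 of the 16 were higher (20.8% of all genes), led by Ly6c2 and Itgax. In lymph node versus TLS 0 of the 16 were called by limma, edgeR or DESeq2 (1 at an unadjusted limma p under 0.05). Of 13 genes of the CSF1 receptor axis and of myeloid transcription factors, 3 were higher in TLS than in kidney (Irf8, Csf2rb and Fgr) and 0 were lower (8.62% and 6.07% of all genes). In lymph node versus TLS 2 of the 13, Irf8 and Csf2rb, were higher and 1, Il34, was lower by limma (1.69% and 8.87% of all genes), where edgeR called 1 and DESeq2 2 of the 13. In lymph node versus kidney 8 of the 13 were higher and 1 was lower (20.8% and 23% of all genes). The lower one was again Il34, the gene of the second CSF1R ligand, which tubules express (adjusted p = 0.0129 by limma).

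General lysosomal genes were also counted. Of 18 such genes, 0 were called between TLS and kidney by limma (5 at an unadjusted p under 0.05; median log2 fold change -0.11) or edgeR and 2 by DESeq2. In lymph node versus kidney 4 were higher and 4 were lower, a share near that of all genes, of which 43.8% were called. Of these 8, Lamp2 (-2.50, adjusted p = 0.000200 by limma) and Lgmn (-2.38, adjusted p = 0.00143 by limma) had the largest differences, and both are also genes of kidney tubules. Of 5 tested genes of CD14 and TLR4 signalling, 0 were called by limma, edgeR or DESeq2 between TLS and kidney (1 at an unadjusted limma p under 0.05) or between lymph node and TLS (0). In lymph node versus kidney 2, Myd88 and Nfkb1, were higher (1.83 each, adjusted p = 0.0487 and 0.0126 by limma), whereas edgeR and DESeq2 called 1 of the 5 each. Of all genes, 20.8% were higher in lymph node and 43.8% were called in either direction, so 2 of 5 is not read as a result about this set. Tlr4 had no read in the 4 kidneys.

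Genes of lymphocytes moved with the list. All 7 tested genes of B cells and all 7 of T cells were higher in TLS than in kidney (8.62% of all genes) and in lymph node than in kidney (20.8%), with Cd79a (4.85, adjusted p = 9.65e-05 by limma) and Cd3g (3.91, adjusted p = 4.19e-05 by limma) among the largest of TLS over kidney. The summed value of the 8 T-cell genes was 9.27 to 16.9 in kidney, 109 to 192 in TLS and 316 to 377 in lymph node. Ctss and Laptm5 are expressed by such cells too, and how much of their RNA came from them was not tested. Only 4 of 11 neutrophil genes were in the table. Their summed value was 5.79 to 7.10 in kidney and 5.45 to 16.1 in TLS, so it was near the floor, whereas it was 229 in lymph node of mouse H6 and 38.8 and 18.6 in those of mice H20 and H117. The lymph node of mouse H6 was also highest in Lyz2, and the part of neutrophils in that value was not tested.

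The lymph nodes were next compared by stage of disease, which asks whether the genes differed between the antibody-positive and the proteinuric mice. Of the 10 genes 0 were called by limma (2 at an unadjusted p under 0.05), as were 0% of the 6810 genes tested (215 at an unadjusted p under 0.05). edgeR called 0 and DESeq2 13 genes, none of the 10 among them. The groups also differ in the RNA kit and in age, which cannot be told apart from the stage of disease.

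Cd14 had the lowest unadjusted p of the 10. Its value was 6.49, 2.85 and 3.44 in the antibody-positive lymph nodes (mice D10, D11 and L25; 6, 2 and 2 reads) and 7.25, 12.3 and 11.3 in the proteinuric ones (mice H6, H20 and H117; 4, 12 and 13 reads). The groups did not overlap in these values, though they did when scaled to the reads outside ribosomal RNA. The log2 fold change was 1.13 with a 95% interval of 0.29 to 1.97 (limma, unadjusted p = 0.0141, Benjamini-Hochberg adjusted p = 0.998). The young lymph node had 2 reads. The mean of TLS was at least 17.3-fold higher than this library, set to the worth of 3 reads.

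Ctss, at 345, 422 and 350 in antibody-positive and 591, 679 and 441 in proteinuric lymph nodes, and Lyz1, at 39.9, 30.4 and 33.3 against 17.4, 30.3 and 25.1, did not overlap between the groups either. The values of 3 of the 10 genes thus did not overlap, Cd14 and Ctss being higher and Lyz1 lower in proteinuric mice, where 8.58% of all genes did not. For Lyz1 the margin was 30.4 against 30.3. Scaled to the reads outside ribosomal RNA in place of the size factors, Cd14 and Lyz1 overlapped between the groups and Ctss did not. The lymph node of mouse H6 had 4 Cd14 reads of 296363, a lower share than the 6 of 396198 in mouse D10. For Lyz1, mouse H117 had 30 reads of 341545, a higher share than the 28 of 405035 in mouse L25. Mpeg1 was 30.6, 23.8 and 48.2 in antibody-positive lymph nodes, and its log2 fold change was 0.97 (95% interval 0.12 to 1.82, unadjusted p = 0.0294 and adjusted p = 0.998 by limma).

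The other 6 genes overlapped between the groups and had intervals that held 0. Lyz2 was 1429, 1288 and 933 in antibody-positive lymph nodes, a log2 fold change of 0.33 for proteinuric over antibody-positive (95% interval -0.66 to 1.32). Laptm5 was 195, 191 and 109, a log2 fold change of -0.75 (95% interval -1.78 to 0.27), and Csf1r was 60.2, 58.0 and 103, a log2 fold change of -0.46 (95% interval -1.36 to 0.45). Cd68 was 59.3, 59.0 and 48.2, and its log2 fold change of -0.21 (95% interval -1.02 to 0.59) turned to 0.10 without lymph node of mouse H6. Aif1 was 36.1, 39.0 and 59.7, with 0.64 (95% interval -0.24 to 1.52), and Mrc1 had 5, 2 and 8 reads, with -0.38 (95% interval -1.51 to 0.75). Each of these intervals reached past a 2-fold difference in one direction.

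The young lymph node had a Lyz2 value of 1173, a Ctss value of 338, a Csf1r value of 58.2 and a Laptm5 value of 88.6. Its Lyz2 value lay within the range of the antibody-positive lymph nodes and below all 3 proteinuric ones. Mpeg1 (64.4) lay within the proteinuric range and above the antibody-positive one. As a single library it has no replicate check.

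Compared per kb of exon, the normalized reads without the added read of Lyz2 were 110 ± 56.4 in kidney, 391 ± 70.3 in TLS and 1154 ± 224 in lymph node, and those of Ctss 55.4 ± 43.9, 222 ± 49.4 and 419 ± 88.6 (SD, n = 4, 3 and 3). The third place changed with the tissue. In kidney it was Cd14 (31.8 ± 34.1), followed by Cd68 (12.7 ± 12.3), and in TLS again Cd14 (26.8 ± 5.53) and Cd68 (24.6 ± 16.6), with ranges that overlapped in both tissues. In lymph node Aif1 (46.7 ± 19.0) and Cd68 (38.7 ± 13.6) came next and overlapped as well, whereas Cd14 (5.33 ± 1.73) was ninth. Mrc1 was last in TLS and in lymph node, and Lyz1, without a read, in kidney.

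Over the 14 libraries, Lyz2 was closest to Ctss (Pearson r = 0.955) and to Laptm5 (r = 0.940) among the 10 genes, on log2(value + 1). Cd14 had a negative r with each of the other 9, from -0.04 with Cd68 to -0.71 with Lyz1. These are descriptions of 14 libraries that differ by tissue and share mice, so they carry no p. Outside the list, the genes closest to Lyz2 were Ms4a6b (r = 0.987), Gimap6 (r = 0.985) and Gimap4 (r = 0.978), among the 2430 genes searched, those with mean values from 20 upward. The closest to Cd14 were Cxcl16 (r = 0.948), the gene of a chemokine and scavenger receptor, Sprr1a (r = 0.915) and Cd9 (r = 0.892). Cd68 was closest to Vim, Icam1 and Tgfbr2 (r = 0.961 to 0.976), Csf1r to Pkm, Nolc1 and Ddx24 (r = 0.902 to 0.912), and Ctss to Slfn2, H2-Ea-ps and Psmb9 (r = 0.970 to 0.977). Mpeg1 was closest to Ighv1-28, Ms4a6c and Iigp1 (r = 0.926 to 0.942), Aif1 to the antibody genes Igkv15-103, Ighv1-42 and Iglc2 (r = 0.941 to 0.945), and Laptm5 to Smap2, H2-Q10 and Itgb7 (r = 0.978 to 0.984). Lyz1 and Mrc1 had means under 20 and were not searched.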

How the data were processed

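Poly(A) RNA of 14 samples was sequenced on an Ion Torrent PGM, and the authors trimmed, mapped and counted reads per gene in CLC Genomics Workbench with default settings against GRCm38. The deposited signal per gene and library was a whole number divided by a size factor in 100% of values (tolerance 1e-06), so that reads were recovered by multiplying by the factor and subtracting 1. Groups were those of the labels. A single limma 3.58.1 fit (with trend, robust; R 4.3.3) held the 10 proteinuric libraries, on log2(value + 1), a scale that understates the change of low genes, over 7382 genes with a mean of at least 5. The 3 antibody-positive and 3 proteinuric lymph nodes had a fit of their own (6810 genes). Tests were two-sided, with Benjamini-Hochberg adjustment over all genes tested and a threshold of 0.05. Lower bounds set a group with at most 3 reads in each library to the worth of 3 reads in its shallowest library (2.36 to 5.32). Alternatives were edgeR 4.0.16 and DESeq2 1.42.0 on the recovered reads, other pseudocounts and filters, a minimum log2 fold change of 1, a replicate block for the mouse, only the groups compared or one fit of 13 libraries, leaving out each library, and, chosen after seeing the data, leaving out the 3 libraries rich in ribosomal RNA. The numbers pair the samples, since libraries with the same number came from one animal. Deviations from the tissue means correlated at 0.351 to 0.454 in the 3 kidney and TLS pairs of one mouse, but at -0.335 to 0.202 in the 3 kidney and lymph node pairs and at -0.266 and 0.025 in the 2 TLS and lymph node pairs, against -0.498 to 0.512 between libraries of different mice. The tests were tested on simulated data. Sequences were read from RefSeq promoters (GRCm38.p6) and GENCODE transcripts of GRCm38, and the genes' lengths are exon unions. The 10 genes, the other lists, the motifs and the rule for named genes (the 3 genes most alike by Pearson r, and from each list called genes of largest fold change) were chosen with earlier results of these data known. C1qa, C1qb, C1qc, Fgr, Il34, Tlr4, Adgre1, Mertk and Sirpa were named after their values were seen. The 15 whole-kidney samples were not analysed here.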

Additional observations from a re-analysis of the deposited data

Results flagged for a closer look

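Aif1 in kidney of mouse H20 had a value of 22.8, from 26 reads, while the other 3 kidneys lay between 4.42 and 7.10, from 3 to 4 reads. It stood out by the gap to its nearest neighbour as a share of the range of the 4 kidneys (Dixon's test at 95%), a rule that chance meets in about 1 of 20 groups. Only the kidneys, the one group of 4, were examined in this way. Every gene but Lyz1 was examined on its high and its low side, so many gaps were searched for this value. The same library was highest of the 4 kidneys in Lyz2, Ctss, Laptm5 and Mrc1, but not in Cd14, Cd68 or Mpeg1. The cause was not tested.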

How the results depend on the processing

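Levels of 9 genes as ratios of TLS or lymph node to kidney moved by less than 1 SD when scaled to the reads outside ribosomal RNA in place of the size factors. Each setting is that of limma unless named. In TLS versus kidney, the genes called of the 10 were 5, fell to 2 without the 3 libraries rich in ribosomal RNA, and were 1 to 5 when single libraries were left out, with 1 without TLS of mouse H6. All genes called (1084) became 566 at a mean of at least 20 and 530 to 1344 when single libraries were left out, 692 without kidney of mouse H115. In lymph node versus TLS, the genes called of the 10 were 1, became 2 with DESeq2 or with only the 2 tissues, 0 at a mean of at least 20, which drops Lyz1, and remained at 1 with each single library left out. With only the 2 tissues, 1 of the 2 (Cd14) was lower in lymph node. All genes called (780) became 315 at a mean of at least 20, 518 with only the 2 tissues, 408 without the 3 libraries, and 480 to 977 with single libraries left out. In lymph node versus kidney, 6 to 8 of the 10 were called in all alternatives, and all genes called (3230) became 1284 at a mean of at least 20. These counts include 1 gene lower in lymph node (Cd14) with edgeR, with DESeq2 and without kidney of mouse H117. Between the lymph nodes, all genes called (0) became 13 with DESeq2, 7 in one fit of 13 libraries and 0 to 5 with single libraries left out, with 5 without antibody-positive lymph node of mouse D11. Signs turned for Cd14 in TLS over kidney with edgeR (-0.082), DESeq2 (-0.15), without the 3 libraries (-0.14) and without kidney of mouse H117 (-0.059, where single libraries left out gave up to 1.39), for Csf1r in the same comparison without the 3 libraries (-0.030), and for Cd68 between the lymph nodes without lymph node of mouse H6 (0.10, from -0.37 over single libraries left out). In each case the estimate was not called before or after, and the cause was not tested.

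With the mouse as a replicate block, 5, 1 and 7 of the 10 genes were called in TLS versus kidney, lymph node versus TLS and lymph node versus kidney, and 1204, 569 and 2951 of all genes. The block changed 2 calls, both in lymph node versus kidney, in which Cd68 was lost and Csf1r gained, and no other call of the 10. The mouse could not be a block between the lymph node groups, which share no animal. Counts of a few reads limit Lyz1 in kidney and TLS, Cd14 in lymph node and Mrc1 in all tissues, where single reads set the values, and the shallowest library, kidney of mouse H117, had a read on 7585 genes against 11766 in TLS of mouse H20.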
